A study of Mus musculus with 4 samples.

Results

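The tetraspanin genes were taken from the array annotation by name, as the symbols that consist of Tspan and a number together with *Cd9*, *Cd37*, *Cd53*, *Cd63*, *Cd81*, *Cd82* and *Cd151*. Of 19938 genes measured by a probe set with a single symbol, 26 belong to this family, 19 with Tspan symbols and 7 with CD symbols, and each is read by 1 such probe set. ILC87-Ik1-ER cells were measured on 4 Affymetrix arrays (Gene ST 1.0), 2 of cells kept for 24 h in 100 nM 4-hydroxytamoxifen (4OHT) and 2 of cells that received the solvent ethanol (EtOH) over the same 24 h. ILC87 is a line grown from 1 thymic tumour of an Ikaros f/f Lck-Cre+ mouse, in which Cre acts in T cells and removes Ikaros. All arrays therefore come from Ikaros-deficient cells that carry the MigR1:Ik1-ER retrovirus, which encodes the Ikaros-1 isoform joined to the oestrogen receptor's ligand-binding domain and, behind an IRES, GFP, and that were sorted for GFP. Cells that lack Ik1-ER were not exposed to 4OHT on any array, so that a response to Ikaros and a response to 4OHT itself cannot be told apart. The labels give the strain as C57BL/6, whereas the study's methods describe such mice as of mixed background, C57BL/6 with another strain. The comparison asks which genes change when Ikaros activity returns to these cells.

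Tetraspanins are small proteins that cross the membrane several times and bear a large extracellular loop with conserved cysteines. They bind each other and a set of partners, among them integrins, immunoglobulin superfamily proteins and the protease ADAM10, and gather them into membrane microdomains that act in adhesion, migration, receptor trafficking and the release of vesicles. On lymphocytes CD37, CD53, CD81 and CD82 take part in the organisation of antigen receptors and costimulatory molecules, and several members are specific to leukocytes while others are found in nearly all cells.

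The deposited values are RMA expression values on a log2 scale, and changes are given as the log2 fold change of 4OHT over EtOH, with the standard error from limma. Genes count as lower or higher where the p-value, after Benjamini-Hochberg adjustment across the whole array, is under 0.05. *Ikzf1*, the gene of Ikaros, read 12.76 and 12.79 on the EtOH arrays and 12.91 and 12.78 on the 4OHT arrays (log2 fold change 0.07, limma adjusted p = 0.698), and 4OHT acts on the Ik1-ER protein, so that this mRNA does not check the treatment. All 10 measured T-cell markers lay above the array medians (7.11 to 7.16) in at least 1 treatment, whereas none of the 7 B-cell and 4 erythroid markers did. Of the other lists, 5 of 8 stromal and epithelial, 2 of 7 natural killer, 1 of 10 myeloid and dendritic and 1 of 5 platelet markers did. The array medians thus do not set T-cell markers apart from those of all other cells. Whether samples 1 and 2 of a treatment were grown as separate cultures is not stated. The p-values therefore rest on how far these samples differ, a spread that may be technical.

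After 24 h of 4OHT, *Tspan2*, *Tspan4*, *Tspan31* and *Tspan6* were lower and *Cd37* was higher. The other 21 tetraspanin genes did not pass the test. Thus 4 of 26 members (15.4%) were called lower where 2.99% of all measured genes were, and 1 of 26 (3.85%) was called higher against 1.23% of all genes. The members were chosen with earlier results of these data known, so these shares are a description and were not tested. The median log2 fold change of the 26 members was 0.00083, beside 0.031 over all genes, and their median absolute change was 0.14, beside 0.11. Both 4OHT arrays lay below both EtOH arrays for 12 members, which was the case for 24.5% of all genes, and above them for 5 members, against 32.1% of all genes. The treatments overlapped for the other 9 members. In a population of cells, a lower level per cell cannot be told from fewer cells that express the gene.

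**Figure D1:**
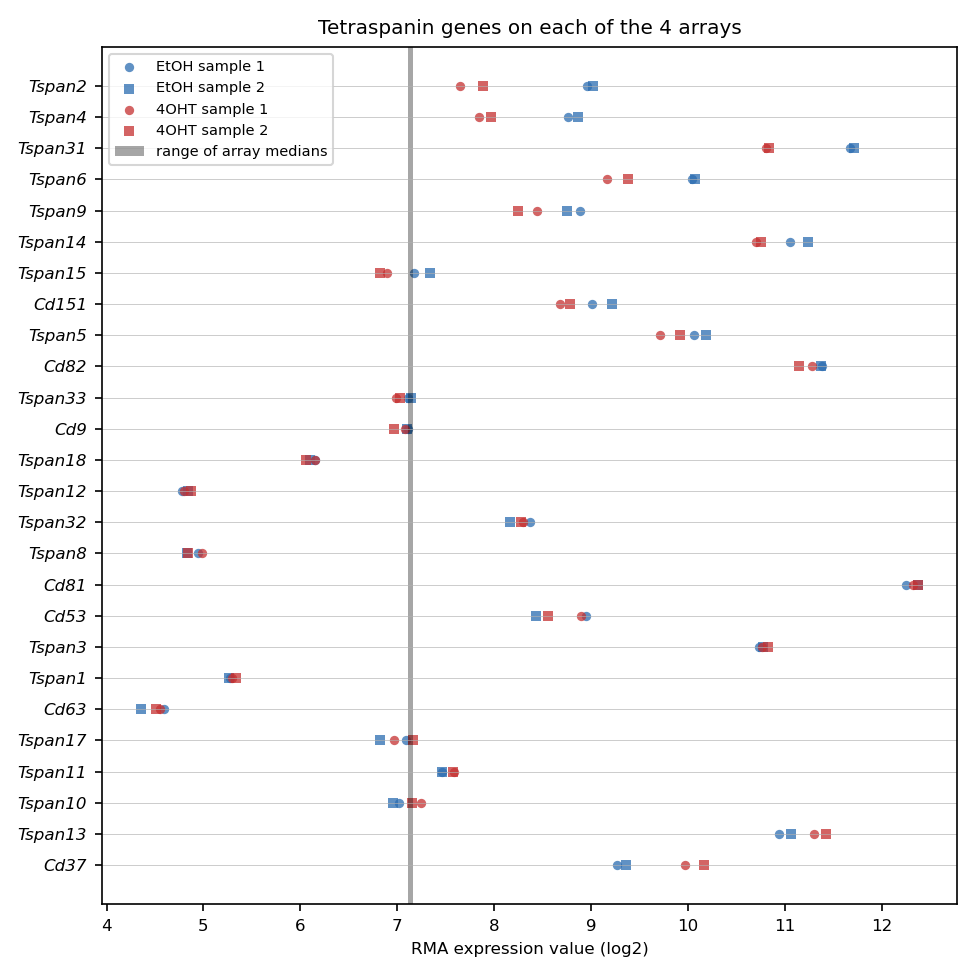
RMA expression values (log2, horizontal axis) of the 26 tetraspanin genes on each of the 4 arrays; blue marks are EtOH and red marks 4OHT arrays, circles sample 1 and squares sample 2, and the grey band spans the array medians. Red and blue marks are well apart for *Tspan2*, *Tspan4*, *Tspan31*, *Tspan6* and *Cd37*, and the 2 samples of a treatment differ most for *Cd53*.

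The promoters of the 5 called genes are shown because Ikaros binds DNA at sites with the core GGGAA, often within TGGGAA. RefSeq promoters of 300 bases (250 before and 50 after the start site, GRCm38.p6) were found for 25 of the 26 members, 35 promoters in all. The start site with the lowest coordinate is given for each gene, 5′ to 3′ on the gene's strand, with every match to GGGAA or its reverse complement TTCCC in capitals.

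Tspan2, chr3:102734520-102734819, plus strand: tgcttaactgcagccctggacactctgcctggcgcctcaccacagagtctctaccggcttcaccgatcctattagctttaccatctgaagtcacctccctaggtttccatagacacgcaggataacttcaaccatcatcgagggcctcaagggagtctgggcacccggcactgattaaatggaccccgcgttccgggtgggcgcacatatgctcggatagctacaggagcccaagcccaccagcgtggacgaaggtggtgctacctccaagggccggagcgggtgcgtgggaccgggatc

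Tspan4, chr7:141474986-141475285, plus strand: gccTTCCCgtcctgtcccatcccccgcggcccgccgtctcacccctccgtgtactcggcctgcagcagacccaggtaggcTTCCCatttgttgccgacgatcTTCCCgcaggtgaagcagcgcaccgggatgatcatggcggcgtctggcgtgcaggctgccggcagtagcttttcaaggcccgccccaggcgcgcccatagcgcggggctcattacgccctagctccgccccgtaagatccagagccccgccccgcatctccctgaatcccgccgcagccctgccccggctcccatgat

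Tspan31, chr10:127070212-127070511, minus strand: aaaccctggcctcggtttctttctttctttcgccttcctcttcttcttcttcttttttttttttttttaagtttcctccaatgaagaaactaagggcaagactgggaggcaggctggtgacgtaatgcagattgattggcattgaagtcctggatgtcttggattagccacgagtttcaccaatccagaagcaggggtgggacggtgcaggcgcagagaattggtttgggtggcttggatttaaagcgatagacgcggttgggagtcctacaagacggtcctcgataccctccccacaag

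Tspan6, chrX:133898380-133898679, minus strand: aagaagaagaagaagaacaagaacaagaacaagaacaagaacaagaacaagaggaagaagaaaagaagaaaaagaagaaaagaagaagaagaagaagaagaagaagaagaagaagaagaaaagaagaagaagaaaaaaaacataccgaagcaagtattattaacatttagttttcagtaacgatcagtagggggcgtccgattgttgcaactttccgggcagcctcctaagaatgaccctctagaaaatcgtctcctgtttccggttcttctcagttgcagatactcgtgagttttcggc

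Cd37, chr7:45238790-45239089, minus strand: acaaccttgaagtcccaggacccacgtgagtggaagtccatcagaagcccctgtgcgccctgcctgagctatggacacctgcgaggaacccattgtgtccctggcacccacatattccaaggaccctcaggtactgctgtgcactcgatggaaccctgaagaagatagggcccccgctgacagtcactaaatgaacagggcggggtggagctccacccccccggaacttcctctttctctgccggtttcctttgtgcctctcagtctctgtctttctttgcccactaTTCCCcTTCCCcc

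In these windows *Cd37* has 2 matches, both as TTCCC, which begin at positions 38 and 44 counted from 1 at the start site. *Tspan4* has 3, of which 1 is the longer TGGGAA. The windows of *Tspan2*, *Tspan31* and *Tspan6* have no match to GGGAA. The study found a different motif, AGGAA, enriched under its Ikaros peaks, and matches to it were not counted here. Windows without capitals can hold AGGAA or its reverse complement, as those of *Tspan31* and *Tspan6* do, and are not shown to lack Ikaros sites. The window of a second *Tspan2* start site, chr3:102734965-102735264, has 1 match, and that of a second *Tspan4* start site, chr7:141476130-141476429, has 2. Over both strands 24 of the 35 tetraspanin promoters hold GGGAA, which is also in 62.7% of all 32851 RefSeq promoters, and 14 hold TGGGAA, which contains the shorter motif and is in 25.6% of all promoters. Of the 7 promoters of called members 4 hold the shorter and 2 the longer motif. A match of these letters is a description of the window and says nothing about binding in these cells, which the arrays do not measure.

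*Tspan2*, which is best known from oligodendrocytes and myelin, had the largest change of the family. Its values were 8.96 and 9.02 on the EtOH arrays and 7.65 and 7.89 on the 4OHT arrays. The treatments were thus separated by a gap of 1.07 on the log2 scale, while samples of a treatment differed by at most 0.24. The level was 2.33-fold lower with 4OHT (log2 fold change −1.22, standard error 0.11, 95% interval −1.50 to −0.94, limma adjusted p = 0.0172).

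*Tspan4*, whose product drives the formation of migrasomes on retraction fibres of moving cells, read 8.77 and 8.87 with EtOH and 7.85 and 7.96 with 4OHT. The 4OHT level was 1.88-fold lower (−0.91 on the log2 scale, standard error 0.086, limma adjusted p = 0.0194). Both treatments were tight, with differences between samples of 0.10 and 0.12 against a gap of 0.80 between treatments.

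*Tspan31*, known in human sarcomas as SAS, a gene amplified together with *CDK4*, fell from 11.67 and 11.71 with EtOH to 10.81 and 10.84 with 4OHT. This was a 1.83-fold lower level (log2 change −0.87, standard error 0.071, limma adjusted p = 0.0156), and the lowest adjusted p of the family. The samples of each treatment differed by no more than 0.040. On the RefSeq annotation (GRCm38.p6) *Tspan31* overlaps *Cdk4*, which encodes a cyclin-dependent kinase of G1 phase and had 13.31 and 13.32 with EtOH and 13.22 on each 4OHT array (log2 fold change −0.09, limma adjusted p = 0.526).

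*Tspan6*, an X-linked member that has been tied to the sorting of vesicle cargo, had 10.05 and 10.08 with EtOH and 9.17 and 9.39 with 4OHT. It was 1.72-fold lower with 4OHT (−0.78 on the log2 scale, standard error 0.099, limma adjusted p = 0.0351). The EtOH samples differed by 0.031 and the 4OHT samples by 0.22, all less than the gap of 0.66 between treatments.

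*Cd37* was the member called higher. It encodes a tetraspanin of leukocytes that is most abundant on B cells and restrains T-cell proliferation in mice. Its values were 9.27 and 9.36 with EtOH and 9.97 and 10.17 with 4OHT. The level was 1.68-fold higher with 4OHT (log2 fold change 0.75, standard error 0.099, 95% interval 0.49 to 1.01, limma adjusted p = 0.0379), and the gap between treatments was 0.61.

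These 5 calls rest on the pooled spread of all 4 arrays. In the fits without EtOH replicate 1, without EtOH replicate 2 or without 4OHT replicate 2 these calls were not kept. Without either EtOH replicate no gene of all 19938 passed, and without 4OHT replicate 2 only 65 were lower and 14 higher, so that these fits say little about single members. Without 4OHT replicate 1 *Tspan2* alone of the members passed (limma adjusted p = 0.0392), with 178 lower and 63 higher among all genes. The log2 fold changes themselves stayed between −1.34 and −1.10 for *Tspan2*, −0.97 and −0.86 for *Tspan4*, −0.89 and −0.85 for *Tspan31*, −0.89 and −0.68 for *Tspan6*, and 0.65 and 0.85 for *Cd37* in these fits.

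**Figure D2:**
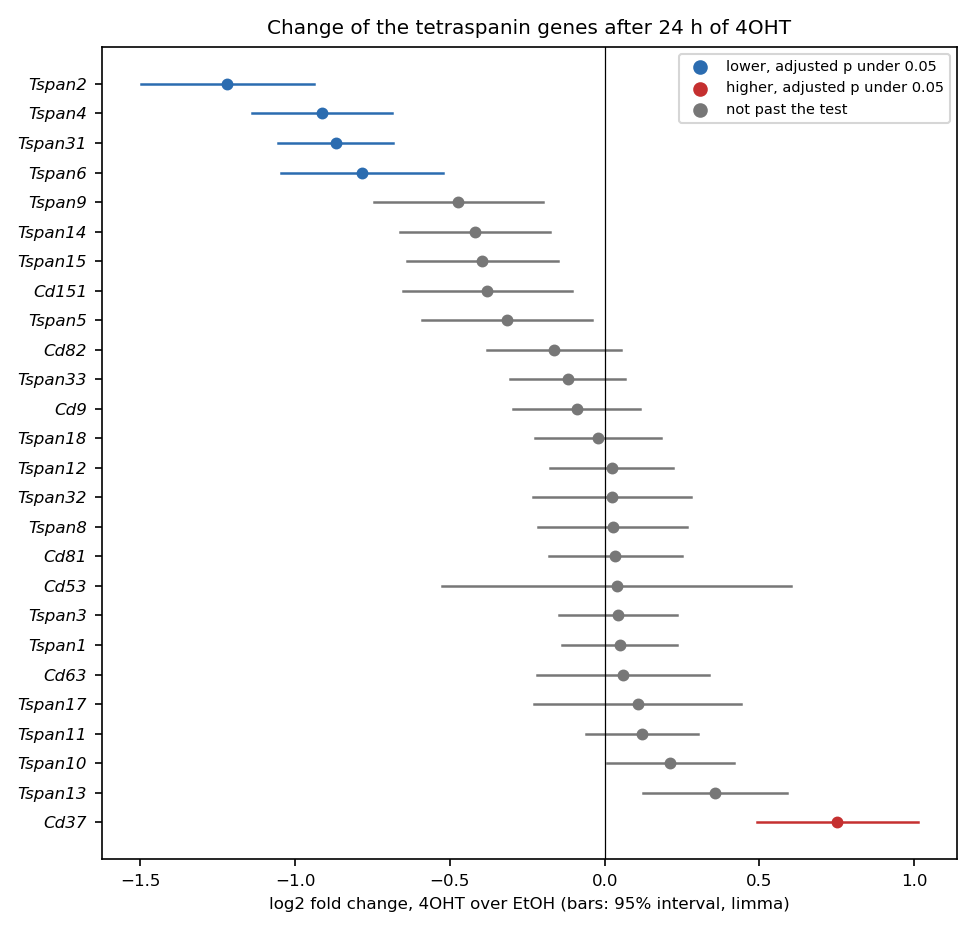
Log2 fold change (4OHT over EtOH, horizontal axis) of each tetraspanin gene, with points for estimates and bars for 95% intervals from limma; blue is lower, red higher and grey not past the test at an adjusted p under 0.05. The estimates run from −1.22 for *Tspan2* to 0.75 for *Cd37*, and 14 of the 26 intervals include 0.

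A further 7 members had an unadjusted p under 0.05 without passing the adjusted test (limma adjusted p = 0.105 to 0.259), so that 9 of 26 members in all were lower at this weaker threshold, against 11.7% of all genes, and 3 were higher, against 8.74%. *Tspan9*, a tetraspanin abundant on platelets, read 8.88 and 8.75 with EtOH and 8.44 and 8.25 with 4OHT (log2 fold change −0.47, limma adjusted p = 0.105). *Cd151*, which encodes the partner of laminin-binding integrins, read 9.01 and 9.22 with EtOH and 8.68 and 8.78 with 4OHT (log2 fold change −0.38, limma adjusted p = 0.158). *Tspan13* read 10.94 and 11.07 with EtOH and 11.30 and 11.42 with 4OHT (log2 fold change 0.36, limma adjusted p = 0.131). For all 3 the treatments did not overlap, with gaps of 0.31, 0.22 and 0.24. The other 4 belong to the TspanC8 subgroup.

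The TspanC8 proteins, named for the cysteines of their large loop, escort ADAM10 out of the endoplasmic reticulum and steer the protease towards different substrates. All 6 genes were measured and none was called, with a median log2 fold change of −0.22. *Tspan14* had 11.06 and 11.24 with EtOH and 10.71 and 10.75 with 4OHT (log2 fold change −0.42, 95% interval −0.66 to −0.18, limma adjusted p = 0.106). *Tspan15* had 7.17 and 7.34 with EtOH and 6.90 and 6.82 with 4OHT (log2 fold change −0.39, limma adjusted p = 0.118). *Tspan5* had 10.06 and 10.19 with EtOH and 9.71 and 9.91 with 4OHT (log2 fold change −0.31, limma adjusted p = 0.221). In each of these the 4OHT arrays lay below the EtOH arrays, by 0.30, 0.27 and 0.15. *Tspan10* went the other way, with 7.01 and 6.96 against 7.25 and 7.15 (log2 fold change 0.21, limma adjusted p = 0.259). *Tspan33*, found in erythroid cells and activated B cells, read 7.11 and 7.14 against 6.99 and 7.02 (log2 fold change −0.12, limma adjusted p = 0.440), and *Tspan17* overlapped between treatments (0.11, limma adjusted p = 0.704). *Adam10* itself had a log2 fold change of −0.11 (95% interval −0.30 to 0.09, limma adjusted p = 0.515).

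The outcome for these members depends on which probe sets enter the fit and the adjustment. When only probe sets with 1 gene symbol were fitted, 8.72% of all genes were called lower and 5.03% higher. There 8 members were lower, the 4 named above with *Tspan9* (limma adjusted p = 0.00684), *Tspan14* (0.00984), *Tspan15* (0.0137) and *Cd151* (0.0223), and 2 were higher, *Cd37* and *Tspan13* (0.0204). The fold changes are the same in both fits, and what differs is the estimate of the spread and the number of tests.

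**Figure D3:**
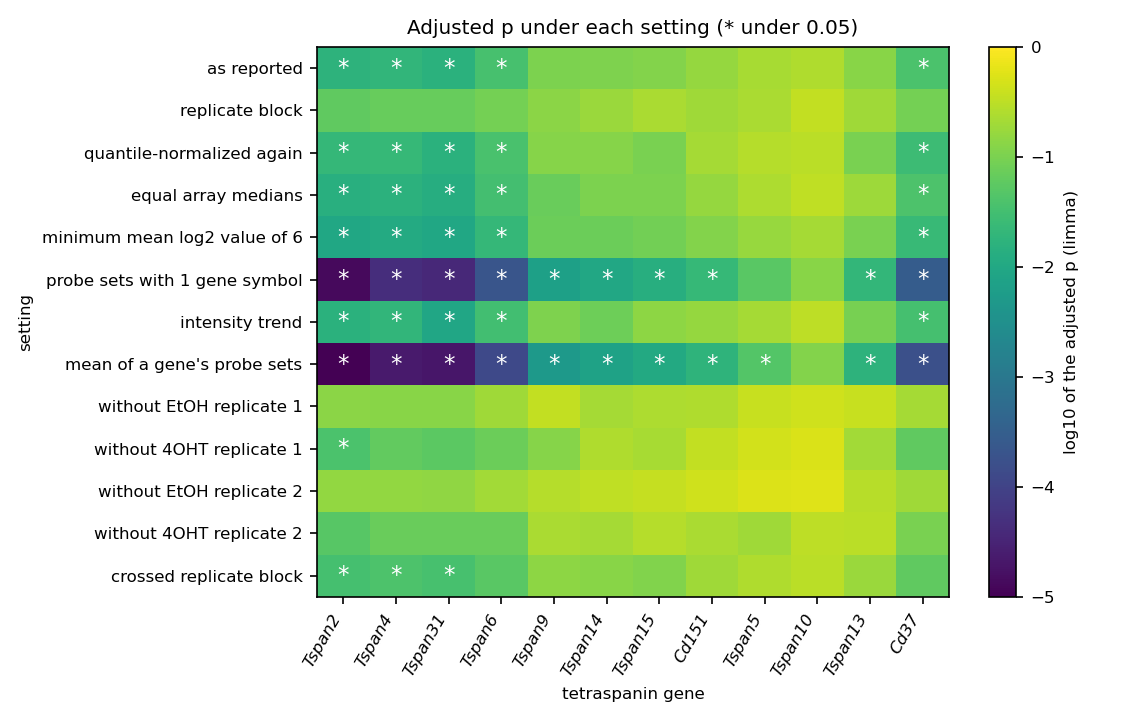
Adjusted p from limma (colour, log10 scale) of the 12 tetraspanin genes with an unadjusted p under 0.05 (columns) under each processing setting (rows), with a star where it was under 0.05. Stars fill most of the rows with 1 gene symbol or with probe sets averaged per gene, and are absent from the rows with the replicate block, without either EtOH replicate and without 4OHT replicate 2.

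Among the tetraspanins prominent on lymphocytes *Cd37* passed the test and *Cd53*, *Cd81*, *Cd82* and *Tspan32* did not. *Cd81*, a widely expressed member, had 12.25 and 12.37 with EtOH and 12.32 and 12.38 with 4OHT. Its treatments overlapped (log2 fold change 0.03, 95% interval −0.18 to 0.25, limma adjusted p = 0.854). *Cd82*, also known as Kai1 and as a suppressor of metastasis, had 11.39 and 11.37 against 11.28 and 11.15. Here the 4OHT arrays were lower by a gap of 0.088, which did not pass the test (log2 fold change −0.16, 95% interval −0.38 to 0.05, limma adjusted p = 0.376). *Cd53*, a tetraspanin of all leukocytes, had 8.95 and 8.43 against 8.90 and 8.56. The samples of a treatment differed by 0.52 and 0.34, and the standard error of 0.21 was the largest among the 26 members, the next being 0.13. A change of *Cd53* between −0.53 and 0.60 on the log2 scale is within its 95% interval (log2 fold change 0.04, limma adjusted p = 0.943). *Tspan32*, a haematopoietic member that in mice limits T-cell proliferation, had 8.37 and 8.16 against 8.30 and 8.28 (log2 fold change 0.02, limma adjusted p = 0.921). The differences between *Cd37* and these genes were not tested.

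*Cd9* was among the loci the study examined by chromatin immunoprecipitation in thymocytes. In thymocytes with little functional Ikaros the study reports less of a repressive histone mark at *Cd9* and less or no silencing of its mRNA. The arrays here are of a tumour line after 24 h, so the cells and the time differ. *Cd9* encodes a tetraspanin of platelets, stem cells and many epithelia. Its mRNA read 7.12 and 7.11 with EtOH and 7.08 and 6.96 with 4OHT, values within or below the range of the array medians. The log2 fold change was −0.09 (95% interval −0.30 to 0.12, limma adjusted p = 0.597), so that a decrease of more than 0.30 on the log2 scale lies outside the interval. The deposited values carry no detection calls, and if the probe set reads background a decrease could not be seen. *Cd63*, whose product marks late endosomes, lysosomes and exosomes, read 4.59 and 4.35 with EtOH and 4.56 and 4.51 with 4OHT, below the lower quartile of every array (5.67 to 5.74). Whether this probe set detects *Cd63* was not tested, and the values are not evidence of low expression.

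The remaining members had small changes. *Tspan3*, with 10.74 and 10.77 against 10.77 and 10.83, had a log2 fold change of 0.04 (limma adjusted p = 0.794). *Tspan11* had 7.46 and 7.47 against 7.59 and 7.58, where the 4OHT arrays were higher by a gap of 0.11 without passing the test (log2 fold change 0.12, limma adjusted p = 0.429). *Tspan1* (log2 fold change 0.05), *Tspan8* (0.03), the Norrin co-receptor gene *Tspan12* (0.02) and *Tspan18* (−0.02), which acts in endothelial calcium entry, had mean values below the array medians in both treatments, with limma adjusted p between 0.758 and 0.908. In all, 14 members had an unadjusted p of at least 0.05. Their estimates lay between −0.16 and 0.12, and their 95% intervals all fell within −0.53 and 0.60. For 8 of the 26 members both treatment means were at or below the highest array median, and for these the absence of a call says little.

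Some tetraspanin genes lie next to each other. On the RefSeq annotation *Cd82* neighbours *Tspan18*, *Cd81* neighbours *Tspan32*, and *Tspan9* neighbours *Tspan11*. In the first and the second pair neither gene was called. In the third, *Tspan9* had −0.47 and *Tspan11* 0.12 on the log2 scale, and neither passed. The 5 called members have 10 neighbouring protein-coding genes, of which 9 were measured. No neighbour was called by limma, where 2.99% of all genes were called lower and 1.23% higher. At an unadjusted p under 0.05 there was 1, against 11.7% of all genes lower and 8.74% higher. So few genes do not set the neighbours apart from all genes. Their log2 fold changes were between −0.15, for *Chid1*, which overlaps *Tspan4* on this annotation, and 0.30, for *Agap2* beside *Tspan31* (limma adjusted p = 0.156 to 0.925).

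The genes of tetraspanin partners were followed in lists drawn from textbook knowledge but chosen with earlier results of these data known. The counts below are therefore a description of the lists. Of 27 measured membrane partners, 7 were lower and 5 higher at an unadjusted limma p under 0.05, against 11.7% and 8.74% of all genes. By the adjusted test 6 fell, 4 rose and 17 did not pass, where 2.99% of all genes were called lower and 1.23% higher. The median log2 fold change was 0.11, beside 0.031 over all genes. Those that fell were *Ptgfrn*, which encodes the CD9 and CD81 partner CD9P-1 (log2 fold change −1.17, limma adjusted p = 0.0181), the integrin genes *Itga6* (−0.81) and *Itgb1* (−0.68), whose product α6β1 binds CD151, *Fzd4* (−1.27), whose signalling TSPAN12 enhances, *Hbegf* (−0.77), a growth factor precursor bound by CD9, and *Egfr* (−0.77), with limma adjusted p between 0.0095 and 0.0396. With 4OHT the means of *Fzd4*, *Hbegf* and *Egfr* were below the array medians. The 4 that rose were T-cell surface genes, *Cd8a*, *Cd4*, *Cd2* and *Cd5* (log2 fold changes 4.32, 2.34, 2.25 and 1.32). *Igsf8*, the other immunoglobulin partner of CD9 and CD81, had 0.09, and *Itga4* and *Clec7a*, partners of CD37, had 0.11 and 0.22 without passing the test.

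Of 20 genes of ADAM10 and its substrates, *Cdh1*, which encodes E-cadherin, and the adhesion molecule gene *Alcam* fell (log2 fold changes −2.74 and −1.09), *Il6ra* and the checkpoint receptor gene *Lag3* rose (0.58 and 0.54), and 16 did not pass, with a median of 0.088. Over all genes 2.99% were called lower and 1.23% higher. At an unadjusted limma p under 0.05, 4 of the 20 were lower and 4 higher, against 11.7% and 8.74% of all genes. The same shares stand beside the unadjusted counts of the lists that follow. The counts of 4 and 4 include the uncalled *Notch1* (−0.43), *Jag1* (−0.39), *Cd44* (0.61) and *Dll1* (0.19), with limma adjusted p between 0.0701 and 0.268. No gene was called by limma among 18 genes of tetraspanin palmitoylation, endosomal sorting and vesicle release, of which 2 were lower and none higher at an unadjusted p under 0.05 (median −0.052). These included *Zdhhc2*, a palmitoyl transferase of tetraspanins (log2 fold change 0.31, limma adjusted p = 0.321), *Sdcbp*, which encodes the CD63-binding syntenin (−0.05), and *Pdcd6ip*, which encodes Alix (0.16). Of 9 genes that link tetraspanins to signalling and the cytoskeleton, *Msn*, which encodes moesin, rose (0.55, limma adjusted p = 0.0425), and 8 did not pass. In this list 1 gene was lower and 3 higher at an unadjusted limma p under 0.05. The 4 genes of the tetraspanin superfamily with other names, *Upk1a*, *Upk1b*, *Prph2* and *Rom1*, were not called either, and 1 of them, *Prph2*, was higher at an unadjusted p under 0.05 (log2 fold change 0.24).

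**Figure D4:**
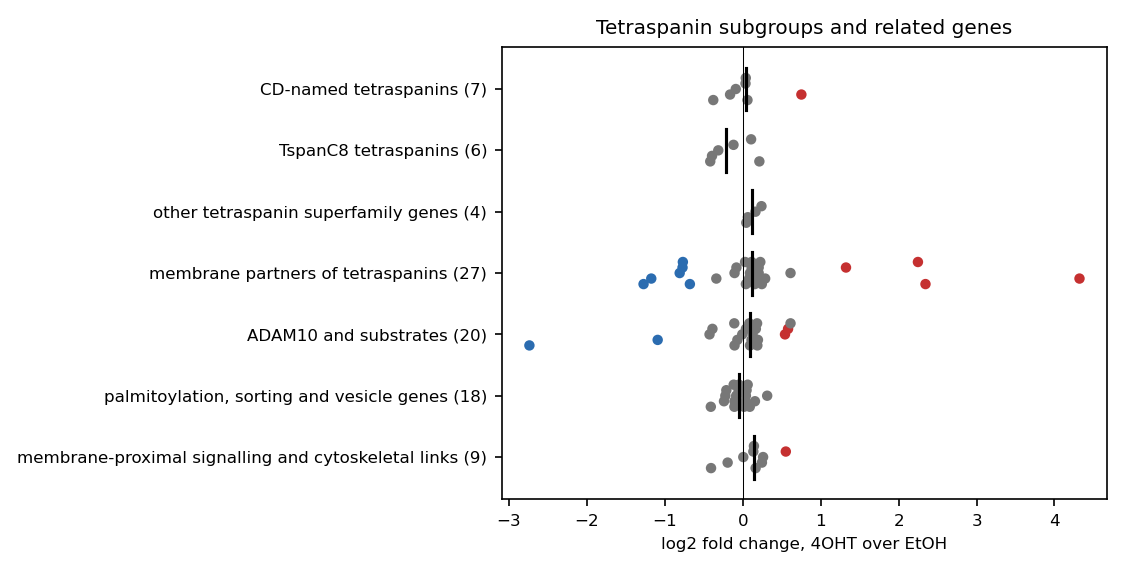
Log2 fold change (4OHT over EtOH, horizontal axis) of tetraspanin subgroups and related gene lists, with the number of measured genes in brackets; each point is a gene, blue if lower, red if higher grey otherwise, with the median of each list as a black line. The CD-named and TspanC8 subgroups stay within −0.42 and 0.75, while membrane partners run from −1.27 for *Fzd4* to 4.32 for *Cd8a*.

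Markers of other cells moved in part with the treatment. Of 10 myeloid and dendritic cell markers *Lyz2* fell and *Itgam* rose (log2 fold changes −1.24 and 0.68). Their summed linear signal was 760 to 797 with EtOH and 777 to 793 with 4OHT. Of 8 stromal and epithelial markers *Pdgfrb* fell (−1.92), and their summed signal was 3703 to 3916 with EtOH and 1848 to 1863 with 4OHT. That difference was in *Pdgfrb*, since the other 7 summed to 1027 to 1098 with EtOH and 1119 to 1142 with 4OHT. None was called by limma among 7 natural killer cell, 5 megakaryocyte and platelet, 4 erythroid and 7 B-cell markers. At an unadjusted p under 0.05 there were 1, 0, 0 and 1 in these lists, against 11.7% of all genes lower and 8.74% higher. The natural killer sum was 3401 to 3878 with EtOH and 4006 to 5220 with 4OHT, 91.1% to 93.1% of it from *Gzma*. The other 6 summed to 247 to 285 with EtOH and 358 to 359 with 4OHT. Among these, *Prf1* had a log2 fold change of 0.86 (limma adjusted p = 0.0605). The summed B-cell signal was 417 to 439 with EtOH and 455 to 456 with 4OHT, that of platelet markers 410 to 433 and 457 to 458, and that of erythroid markers 429 to 436 and 432 to 433. Of 10 T-cell markers *Cd3d* fell (−0.94), with sums of 43551 to 44649 and 39741 to 40325. No defining marker can be read as absent from RMA values, and the part of other cells in the changes of *Cd37* and the 4 lower tetraspanin genes was not tested.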

How the data were processed

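Total RNA (150 ng) of the 4 samples was labelled with biotin as cDNA and hybridised to Affymetrix Gene ST 1.0 arrays. The log2 values deposited by the authors cover 35556 probe sets and were made, per the labels, with Affymetrix Expression Console 1.1 and RMA, which corrects background, quantile-normalizes the probes and summarises each probe set. A change common to most genes is therefore not visible, and differences of dim genes are compressed. No genome build for the probe sets is named in the sources used here.

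Groups were taken from the sample titles. The deposited values were fitted in R 4.3.3 with limma 3.58.1 (lmFit, eBayes, two-sided, no filter, no block; 2 residual degrees of freedom), with Benjamini-Hochberg adjustment over all probe sets. Gene names come from the array annotation of 21789 probe sets with 1 symbol, updated by Entrez number for the related lists. Where a gene has several such probe sets, the brightest on average was used. Every member may be named. Values on each array were given for members with an unadjusted p under 0.05 and for the CD-named members, and others by range or where they complete a comparison. The members, lists and tests were chosen with earlier results of these data known. The number of arrays limits the precision, and 2 arrays against 2 allow no exact test with a useful p. In simulated data of 35556 probe sets, 200 of them changed, the fit recovered 0% of changes of 0.5, 38% of changes of 1 and 86% of changes of 3 (log2), with 5 false calls. The reported fit called 597 genes lower and 246 higher, more than the 200 probe sets changed in the simulation. The simulation also took the observed spread of each probe set as its true spread. These rates therefore do not describe the reported fit. The alternatives are given at the end. Protein sequences were not used here.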

Additional observations from a re-analysis of the deposited data

How the results depend on the processing

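The 4 lower and 1 higher tetraspanin genes kept their calls after another quantile normalization, with equal array medians, with a minimum mean log2 value of 6 (22 members left) and with an intensity trend. With the replicate block 0 members were lower and 0 higher by limma (9 and 2 at an unadjusted p under 0.05; adjusted p between 0.0601 and 0.0917 for the 5 genes), with 25 and 5 among all 19938 genes against 597 and 246 in the reported fit. Deviations of same-numbered arrays correlated at −0.13, so that the numbers are not shown to pair the samples. With the numbers crossed, a setting chosen after seeing the data, 3 were lower and 0 higher (9 and 2 at an unadjusted p under 0.05, and 389 and 146 of all genes by the adjusted test). The share of all genes at an unadjusted p under 0.05 was not taken in the blocked and crossed fits, so their unadjusted counts have no background beside them. Among probe sets with 1 symbol 8 were lower and 2 higher, and with probe sets averaged per gene 9 were lower, *Tspan5* added, and 2 higher (1739 and 1002, and 1807 and 1067, of all genes). At an adjusted p under 0.01 there were 0 and 0 (limma; 9 and 3 at an unadjusted p under 0.05; 59 and 14 of all genes). Leaving out 1 array gave 0 to 1 lower and 0 to 0 higher (0 to 178 and 0 to 63 of all genes, none without either EtOH replicate), in fits with 1 residual degree of freedom where a lone array is assumed to vary like the others. In these fits the sign turned for *Cd81* (−0.025 without EtOH replicate 1, with 0.094 without EtOH replicate 2 as the highest), *Cd53* (−0.13 without 4OHT replicate 1 and −0.22 without EtOH replicate 2, with 0.30 without EtOH replicate 1 as the highest) and *Cd63* (−0.061 without EtOH replicate 2, with 0.18 without EtOH replicate 1 as the highest), none of them called. The median log2 fold change of the family lay between −0.10 and 0.00083 under all of these settings, and was negative after either renormalization, with the minimum value and without any 1 array, so that it has no stable sign. The arrays give no depth, and members near the array medians are limited by the unknown background.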

Other observations

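Genes beside the tetraspanin genes that did not pass the test were also looked at, and those named here were chosen after their values were seen. Over all genes 2.99% were called lower and 1.23% higher, and the share called among these neighbours was not taken. *Pomgnt1*, next to *Tspan1* on the RefSeq annotation and coding for a glycosyltransferase of the dystroglycan pathway, was lower with 4OHT (log2 fold change −0.57, standard error 0.082, limma adjusted p = 0.0444), while *Tspan1* had 0.05. *Smo*, the Hedgehog signal transducer gene next to *Tspan33*, had a log2 fold change of −0.70 that did not pass (limma adjusted p = 0.0539). *Pstpip1*, next to *Tspan3* and coding for a cytoskeletal adaptor of leukocytes, had 0.49 and did not pass either (limma adjusted p = 0.0531). *Vwf*, next to *Cd9*, had 0.17 (limma adjusted p = 0.300). *Cd53* was higher in sample 1 than in sample 2 of either treatment, by 0.52 with EtOH and 0.34 with 4OHT on the log2 scale.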
